A study of Mus musculus with 10 samples.

Results

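The 10 genes described here encode subunits of the transcription factor NF-kB and the proteins that restrain it: Nfkbia, Nfkbib, Nfkbie, Nfkbiz, Tnfaip3, Nfkb1, Nfkb2, Rela, Relb and Bcl3. They were chosen by name, and each matched 1 gene among the 31053 gene identifiers of the deposited tables. They were followed gene by gene over 10 single-cell libraries in 6 groups, in UMI sums per library and in single cells at equal depth. A UMI (unique molecular identifier) marks 1 captured RNA molecule, so PCR copies count once.

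The cells came from the distal lung of tamoxifen-treated mice in which CreERT2, driven by the Sftpc promoter of alveolar type 2 (AT2) cells, switches on a colour reporter, and EpCAM+ cells were sorted as RFP+ or YFP+. In Sftpc-CreERT2;R26R-Confetti lungs both colours are wildtype, with 1 library each. In Sftpc-CreERT2;Red2Kras lungs RFP+ cells carry the recombined red arm of the Red2Kras allele and YFP+ cells are their wildtype neighbours, with 2 libraries per colour at 4 days and 2 at 2 weeks after induction. All mice carried the same Cre driver, and at least a pair of lungs was pooled per sample, which limits each library to a pooled measurement. The study places the Confetti libraries at 2 weeks, so the comparisons of 4 days groups with Confetti cross time points too.

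NF-kB dimers are held in the cytoplasm by inhibitors of the IkB family until a receptor such as that for interleukin-1 or TNF activates the IKK kinases, which mark the inhibitor for destruction. The released Rela-containing dimers act in the canonical arm, and dimers of Relb with processed Nfkb2 act in the slower noncanonical arm. Several inhibitors are themselves NF-kB target genes, so their RNA forms a feedback loop that is widely used as a trace of pathway activity. In the alveolus the pathway is known for its part in injury repair and in lung tumours.

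The promoters of 3 members that the results below turn on were read from RefSeq (GRCm38.p6), as the 250 bases before the start site. Of the 10 members, 7 had an entry in the promoter table, and Nfkbiz, Nfkb1 and Relb had none. Capitals mark matches to the kB motif, the sequence that NF-kB dimers bind, searched on both strands. A window that matched on both strands counted once, and 7.25% of the 32851 promoters of the table held a match in this window.
Nfkbia, chr12:55492648-55492897, minus strand: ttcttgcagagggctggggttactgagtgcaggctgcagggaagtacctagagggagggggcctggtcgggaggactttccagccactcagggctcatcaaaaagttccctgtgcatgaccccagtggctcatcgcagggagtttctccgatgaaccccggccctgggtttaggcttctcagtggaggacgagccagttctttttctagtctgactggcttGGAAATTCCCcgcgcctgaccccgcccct
Tnfaip3, chr10:19015411-19015660, minus strand: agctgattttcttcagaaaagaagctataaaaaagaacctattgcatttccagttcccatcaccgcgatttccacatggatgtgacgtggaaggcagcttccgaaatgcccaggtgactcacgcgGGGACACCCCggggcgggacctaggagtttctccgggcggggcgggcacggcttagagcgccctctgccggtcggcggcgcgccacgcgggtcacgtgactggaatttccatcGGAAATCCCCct
Nfkb2, chr19:46304487-46304736, plus strand: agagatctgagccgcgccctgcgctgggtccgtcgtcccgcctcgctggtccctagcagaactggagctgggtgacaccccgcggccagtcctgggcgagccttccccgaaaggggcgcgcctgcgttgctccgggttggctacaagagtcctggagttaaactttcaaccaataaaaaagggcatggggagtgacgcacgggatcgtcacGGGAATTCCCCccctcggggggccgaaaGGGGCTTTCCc

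Nfkbia had 1 match, 29 bases before the start. Tnfaip3 had matches at 125 and 12 bases, and Nfkb2 had overlapping matches at 39 and 38 bases and another at 11. The Nfkbie window held a match at 106 bases, and none was found in those of Nfkbib, Rela and Bcl3. Tnfaip3 and Nfkb2 have further start sites in the table (1 more for Tnfaip3, with no match, and 2 for Nfkb2, with 1 match each). A match describes letters only and says nothing of binding in these cells.

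After filters on genes, UMIs and mitochondrial share, 32698 of 42012 barcodes passed, 3121 cells of other types were set aside, and 29577 alveolar cells remained (1009 to 4224 per library). Their summed depth ran from 7177788 UMIs in the 2 weeks YFP library of replicate 2 to 69784057 in the 2 weeks RFP library of replicate 1, and the median UMIs per cell from 3126 to 15391.5, so the low members are known most precisely at 2 weeks in RFP+ cells. Libraries shared at most 17 barcodes. The libraries of a group stood apart in cell state. At 4 days, AT2-like cells made up 89.9% of the RFP library of replicate 1 and 2.80% of that of replicate 2, and 95.2% and 1.19% of the YFP libraries, against 96.5% and 96.7% in Confetti. In YFP this split rests on the name of 1 cluster, led by Apoc1, Slpi and Lrg1, which held 2396 of the 2544 primed AT2-like cells of replicate 2. In the RFP library of replicate 2 it held 650 of 687, beside 524 cells of an intermediate state of repair (DATP-like). The cluster scored highest for AT2 markers and stayed unnamed when all cells were clustered, and was named primed AT2-like when alveolar cells were clustered alone. The AT2 marker Sftpc stood at 155173 and 162222 CPM in the 4 days YFP libraries of replicates 1 and 2, and at 133394 and 64845 in the RFP libraries. The share of discarded cells ranged from 3.20% to 42.2%, highest in the 2 weeks YFP library of replicate 2.

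Among the inhibitors, Nfkbia was the member with the most UMIs (680 to 20654 per library). It encodes IkBa, the classical inhibitor that is rapidly remade after activation, and lies at chr12:55489410-55492647. Its level, as CPM (UMI counts scaled to a common library total) scaled by TMM (trimmed mean of M-values) over alveolar cells, was 222 in Confetti RFP and 207 in Confetti YFP. It was 324 and 135 in the 4 days RFP libraries of replicates 1 and 2, and 252 and 135 in the 4 days YFP libraries. At 2 weeks it was 276 and 153 in RFP and 225 and 112 in YFP. In each of the 4 Red2Kras groups the library numbered 1 lay above both Confetti libraries and the library numbered 2 below them, so the group ranges overlapped throughout. In library sums such as these, fewer cells of a state and less RNA per cell cannot be told apart.

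Nfkbiz encodes the atypical nuclear inhibitor IkBz, which also co-activates a subset of targets (chr16:55811375-55838899). It stood at 74.9 and 80.5 CPM in Confetti RFP and YFP. The 4 days libraries of replicates 1 and 2 held 86.4 and 62.6 CPM in RFP and 82.2 and 68.5 CPM in YFP. At 2 weeks the replicates parted further, with 94.8 and 21.8 CPM in RFP and 125 and 37.5 CPM in YFP. As for Nfkbia, replicate 1 was the higher library in all 4 groups, and colour and time did not separate the libraries.

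Tnfaip3 encodes A20, a ubiquitin-editing enzyme that shuts off receptor signalling upstream of IKK (chr10:19000910-19015657). Confetti held 8.51 and 7.41 CPM in RFP and YFP. The 4 days RFP libraries held 11.4 and 23.6 CPM in replicates 1 and 2, and the 4 days YFP libraries 8.91 and 7.94. At 2 weeks RFP held 18.2 and 4.55 CPM and YFP 18.1 and 5.44. At 4 days both RFP libraries therefore exceeded both YFP libraries, whereas at 2 weeks the values followed the replicate and not the colour.

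The remaining inhibitors varied less in absolute level. Nfkbib encodes IkBb, a more slowly degraded inhibitor (chr7:28758251-28767512), and ranged from 26.0 and 26.3 CPM in Confetti to between 30.1 and 41.1 in the 8 Red2Kras libraries, each of which lay above both Confetti libraries, a pattern that 5.2% of 13762 genes shared and, among the members, Nfkbib and Nfkbie. Nfkbie encodes IkBe (chr17:45555703-45563169) and was the scarcest member. It had 18 and 26 UMIs in Confetti RFP and YFP (1.12 and 1.75 CPM) and 2.09 to 5.24 CPM in Red2Kras, where its counts ran from 14 to 393 UMIs. Bcl3 encodes an atypical IkB protein that acts with p50 and p52 homodimers in the nucleus (chr7:19808462-19822770). It stood at 14.6 and 14.8 CPM in Confetti, 12.6 and 18.6 in the RFP and 15.4 and 25.1 in the YFP libraries of 4 days, and 21.2 and 16.0 in the RFP and 28.3 and 22.4 in the YFP libraries of 2 weeks. The 2 weeks YFP libraries of Bcl3 both lay above both 2 weeks RFP libraries and above Confetti.

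Among the subunits, Relb encodes the partner of p52 in the noncanonical arm (chr7:19606217-19629438). It stood at 9.20 and 7.95 CPM in Confetti RFP and YFP, 10.2 and 12.9 CPM in the RFP libraries of 4 days, and 9.78 and 10.1 in the YFP libraries of that time. At 2 weeks the RFP libraries of replicates 1 and 2 held 17.8 and 20.3 CPM, and the YFP libraries 13.5 and 8.74. The 2 weeks RFP libraries were thus the highest of all 10, with a mean of 19.1 ± 1.82 CPM (SD, n = 2) against 11.1 ± 3.40 (SD, n = 2) in 2 weeks YFP. The 4 days group means, 11.5 ± 1.91 CPM in RFP and 9.94 ± 0.226 in YFP (SD, n = 2 each), lay inside the range of the 2 weeks YFP libraries.

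Nfkb2 encodes p100, which is processed to p52 (chr19:46304320-46312385). It stood at 10.7 and 10.3 CPM in Confetti RFP and YFP. The 4 days RFP libraries of replicates 1 and 2 held 14.3 and 35.8 CPM, and the 4 days YFP libraries 10.6 and 12.3. At 2 weeks RFP held 17.5 and 13.7 CPM and YFP 12.5 and 14.0. One library, 4 days RFP of replicate 2, stood far above the rest, and at 2 weeks the colours overlapped by a single YFP library.

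Rela encodes p65, the transactivating subunit of the canonical dimer (chr19:5637483-5648130). Its level was 35.6 CPM in the 4 days RFP library of replicate 2 and between 18.3 and 22.3 CPM in the other 9 libraries. Nfkb1 encodes p105, the precursor of p50 (chr3:135584655-135691547). It lay between 26.0 and 29.5 CPM in 8 libraries, and at 20.3 and 19.8 CPM in the 2 weeks RFP and YFP libraries of replicate 2. Outside those libraries the canonical subunits were thus nearly level across genotype, colour and time.

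**Figure D1:**
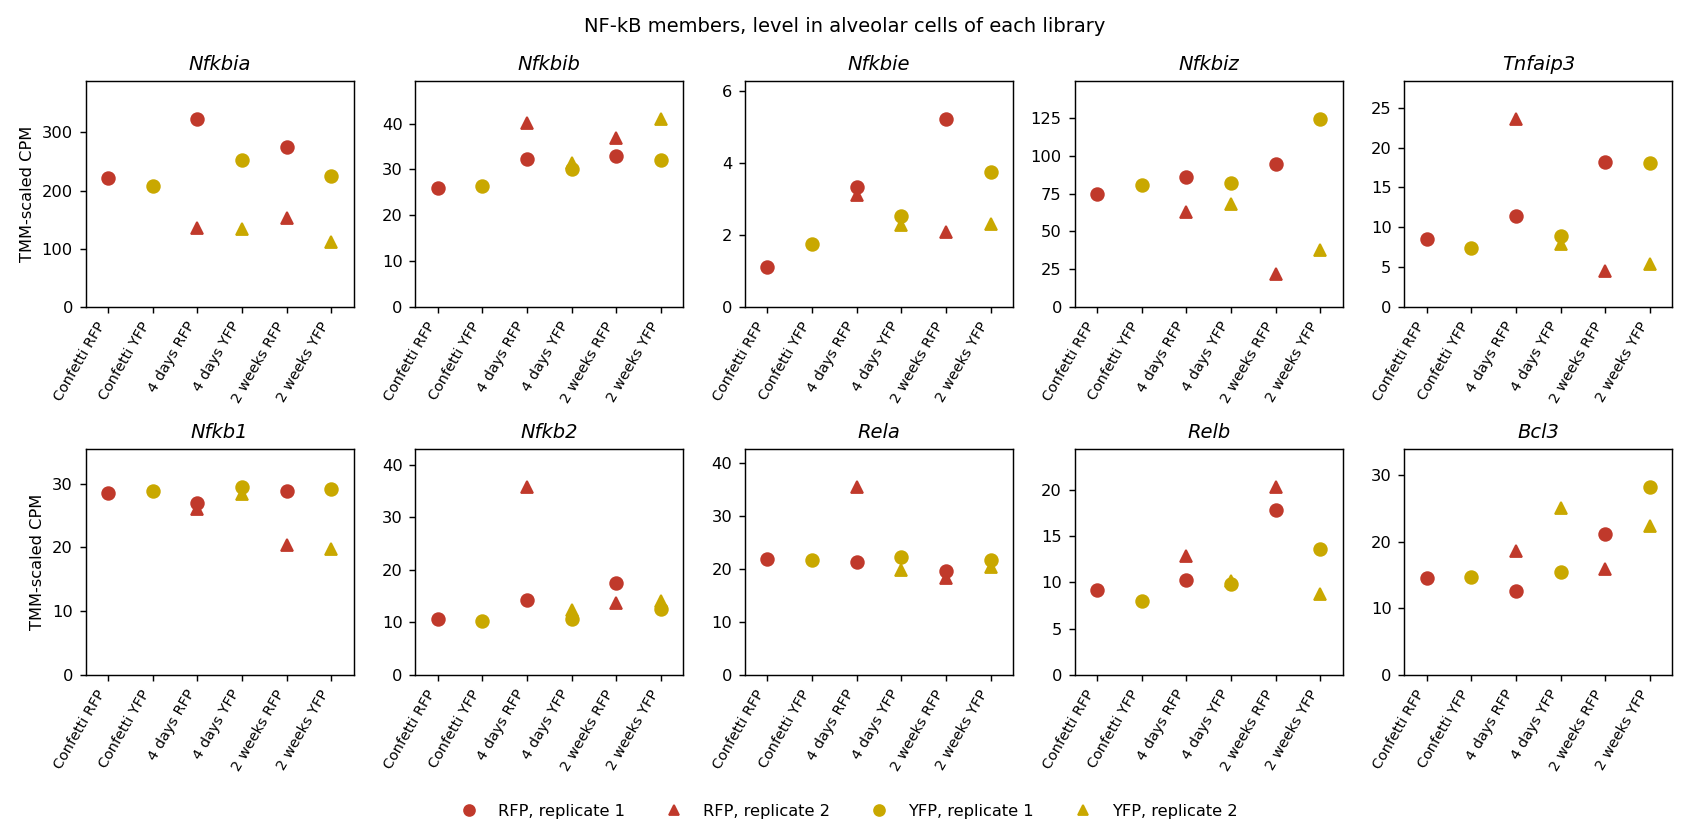
TMM-scaled CPM (vertical axes, from 0) of each member in the alveolar cells of each library, by group; red points are RFP and yellow YFP libraries, circles replicate 1 and triangles replicate 2. For Nfkbia the circles of the Red2Kras groups (225 to 324 CPM) lie above the triangles (112 to 153), and for Relb the 2 weeks RFP libraries (17.8 and 20.3) are the highest.

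Whether RFP cells of Red2Kras lungs differ from their wildtype neighbours was tested with edgeR's quasi-likelihood test on the library sums, with Benjamini-Hochberg adjustment over all genes. Across both time points no member passed an adjusted p of 0.05. Neither did any of the 12503 genes tested (0% called), although 2674 genes, 21.4%, had an unadjusted p under 0.05. Relb was the 1 member in that class, at a log2 fold change of 0.47 (SE 0.20, unadjusted p = 0.0458, adjusted p = 0.223), which is no larger a share of the members than the background. Nfkb2 stood at 0.66 (SE 0.31, adjusted p = 0.257) and Bcl3 at -0.44 (SE 0.22, adjusted p = 0.284), and neither passed. The other members lay between -0.26 for Nfkbiz (SE 0.48, adjusted p = 0.790) and 0.45 for Tnfaip3 (SE 0.52, adjusted p = 0.663). In all, 7 of 10 members were higher in RFP, with a median of 0.20 beside -0.03 over all genes. DESeq2 called 1193 genes and no member, and without the 4 days RFP library of replicate 1 edgeR called 1442 genes and no member. A replicate block brought the count to 882 genes, again with no member, with an adjusted p of 0.185 for Relb. Between RFP and YFP libraries of the same number and time, Nfkbia and Relb were higher in RFP in 4 of 4 and Bcl3 was lower in 4 of 4, the Nfkbia pair of replicate 2 at 4 days being nearly tied. Such a single direction was found for 3 of 10 members and 38.5% of 13762 genes, so it does not set the members apart. Deviations from the group means correlated between the colours at 0.47 at 4 days and 0.55 at 2 weeks, though the labels used here do not say that a number marks shared animals.

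Taken by time point, 0% of the 13762 genes passed in RFP against YFP at 4 days or at 2 weeks, while DESeq2 called 106 and 467 genes and no member. At 4 days 5.68% of genes had an unadjusted p under 0.05, among them Nfkb2, at a log2 fold change of 1.12 (SE 0.41, unadjusted p = 0.0254, adjusted p = 0.839). That value rested on the 4 days RFP libraries: without the 4 days RFP library of replicate 1 it was 1.65 (adjusted p = 0.0462), and without that of replicate 2 it was 0.31 (adjusted p = 1.00). At 2 weeks 16.4% of genes had an unadjusted p under 0.05, among them Relb, at 0.75 (SE 0.28, unadjusted p = 0.0270, adjusted p = 0.262). The difference between the time points, tested as an interaction, passed for no member and for no gene (0% called, 1.54% with an unadjusted p under 0.05, and 0 genes with DESeq2). Its values were 0.54 for Relb (SE 0.40), -0.87 for Nfkb2 (SE 0.57) and -1.13 for Tnfaip3 (SE 1.01), each with an adjusted p that rounds to 1.00. Without single libraries these values ran from 0.26 to 0.90 for Relb, -1.40 to -0.071 for Nfkb2 and -2.46 to 0.013 for Tnfaip3.

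Of the 4 comparisons with Confetti, the most genes passed for 2 weeks RFP, 5.3% of the 13762. No member did. The number of genes that passed rested on every library: it was 730 with all of them and 1 without Confetti RFP, 1 without Confetti YFP, 199 without the 2 weeks RFP library of replicate 1 and 5 without that of replicate 2. Relb came closest, with a log2 fold change of 1.16 (SE 0.28, unadjusted p = 0.00329, adjusted p = 0.0513), a fold of 2.23, with both 2 weeks RFP libraries above both Confetti libraries. Its call rested on the method: the adjusted p was 0.0188 with DESeq2, 0.00617 with no filter on low counts and 0.0486 with each cell scaled to 2000 UMIs, 0.171 with the discarded cell types included, and 0.0888 to 0.256 when single libraries were left out, over which the log2 fold change stayed between 1.02 and 1.26. Nfkbie stood at 1.39 (SE 0.52, unadjusted p = 0.0274, adjusted p = 0.118), from few counts, and at 0.55 without the 2 weeks RFP library of replicate 1. Together, 2 of 10 members had an unadjusted p under 0.05, where 31.1% of all genes did. Nfkbia, at -0.0034 (SE 0.55), Nfkbiz, at -0.41 (SE 0.70), and Rela, at -0.20 (SE 0.28), had adjusted p values of 0.997, 0.711 and 0.655. Without single libraries Nfkbiz ran from -1.85 (without 2 weeks RFP of replicate 1) to 0.26 (without that of replicate 2). The medians were 0.38 over the members and 0.03 over all genes.

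In 4 days RFP against Confetti 0% of genes passed (261 with DESeq2, no member among them), and 8.82% had an unadjusted p under 0.05. Nfkb2 was again the 1 member in that class, at 1.24 (SE 0.41, unadjusted p = 0.0158, adjusted p = 0.511). Without the 4 days RFP library of replicate 1 it was 1.77 (adjusted p = 0.0301) and without that of replicate 2 it was 0.44 (adjusted p = 1.00). Tnfaip3 stood at 1.13 (SE 0.73, adjusted p = 0.663) and Nfkbie at 1.20 (SE 0.53, adjusted p = 0.569). The wildtype neighbours were compared with the same Confetti libraries, so these comparisons are not independent of the ones above. In 2 weeks YFP 0.0436% of genes passed and no member did. Bcl3 was the 1 member with an unadjusted p under 0.05 there, at 0.79 (SE 0.33, unadjusted p = 0.0434, adjusted p = 0.764), where 5.62% of genes were in that class. In 4 days YFP 0.0291% of genes passed, and no member reached an unadjusted p under 0.05, where 1.84% of genes did.

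**Figure D2:**
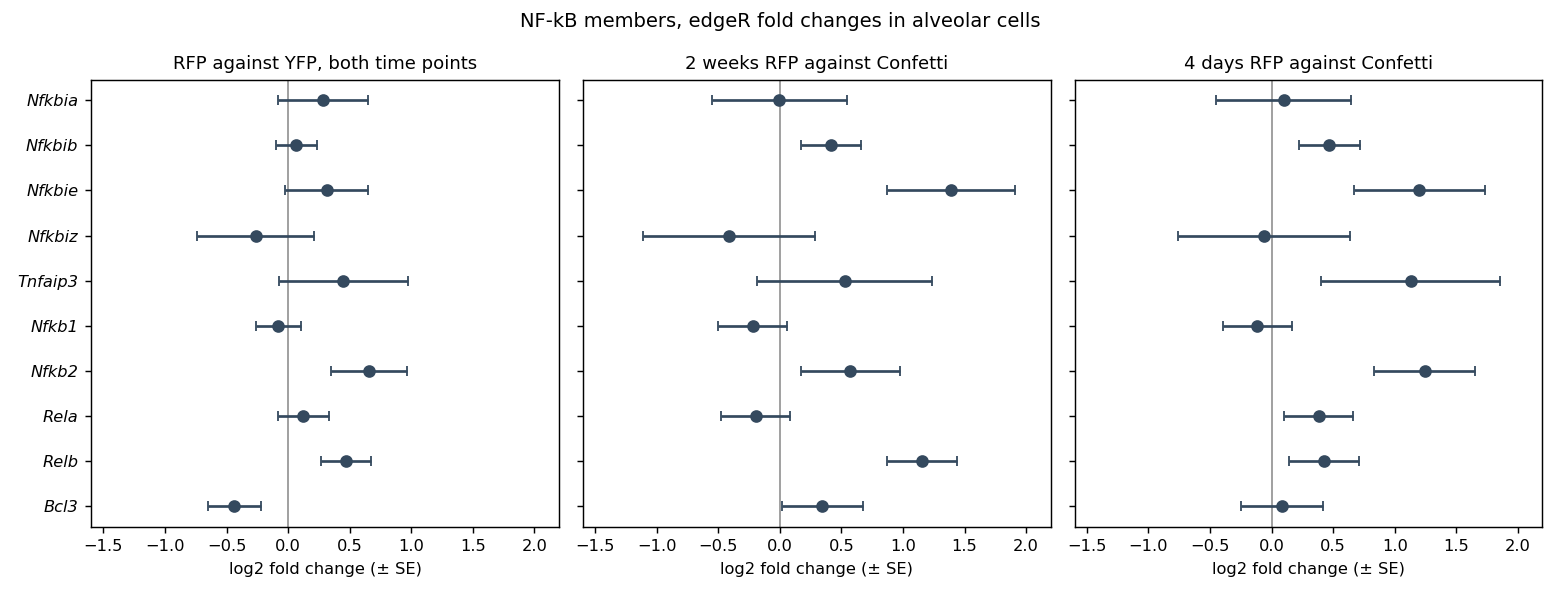
Log2 fold change of each member (horizontal axis, points with bars of 1 standard error from edgeR) for RFP against YFP over both time points, 2 weeks RFP against Confetti, and 4 days RFP against Confetti. Relb at 2 weeks lies at 1.16 and Nfkb2 at 4 days at 1.24, while Nfkbia, Nfkbiz and Nfkb1 have bars that cross 0 in all 3 panels.

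Depth per cell differed between libraries, so each member was also described by the percentage of cells in which it would be detected after thinning every cell to 2000 UMIs, with shallower cells left out. Nfkb2 was found in 2.57% and 6.47% of cells in the 4 days RFP libraries of replicates 1 and 2 and in 3.51% and 2.94% at 2 weeks. The YFP libraries held 2.13% and 2.18% at 4 days and 2.39% and 2.04% at 2 weeks, and Confetti RFP and YFP 2.09% and 2.18%. All 4 RFP libraries thus lay above all 4 YFP libraries and above Confetti. The mean was 3.87% ± 1.77 (SD, n = 4) in RFP and 2.19% ± 0.146 (SD, n = 4) in YFP, a difference of 1.69 percentage points (two-sided exact permutation test, p = 0.0286, the smallest that 4 against 4 libraries allow). This was 1 of 10 such tests and the p is unadjusted. The tests take the 8 Red2Kras libraries as independent and pool the time points. Deviations from the group means correlated between the colours at 0.47 at 4 days and 0.55 at 2 weeks. The p therefore holds only if these libraries vary independently. Of all 13762 genes 8.65% had RFP and YFP libraries that did not overlap in this way, in either direction, so 1 of 10 members is a share near the background. The same order held at 1000 and 3000 UMIs and in AT2-like and primed AT2-like cells alone, and with all UMIs of each cell, at unequal depth, the colours overlapped (exact permutation p = 0.0857). The difference was 0.822 points without the 4 days RFP library of replicate 2, where 3 against 4 libraries allow no p under 0.0571. Shares are relative to all UMIs of a cell and carry no TMM scaling, and on the TMM-scaled sums the colours overlapped at 2 weeks.

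For the other 9 members the colours overlapped. Relb was found in 2.97% ± 0.982 of RFP cells and 1.95% ± 0.491 of YFP cells (SD, n = 4 each, exact permutation p = 0.171), with 3.52% and 4.02% in the 2 weeks RFP libraries. Nfkbib was found in 6.92% ± 0.711 and 6.11% ± 0.579 (SD, n = 4 each, exact permutation p = 0.143). Nfkbia was found in 27.0% ± 8.18 of RFP cells and 22.8% ± 7.38 of YFP cells (SD, n = 4 each, exact permutation p = 0.457), beside 27.4% and 29.1% in Confetti. Nfkbiz was found in 11.7% ± 5.54 and 12.8% ± 6.06 (SD, n = 4 each, exact permutation p = 0.80). NF-kB is used widely across cell types, so no discarded type gives a background for these shares. In the discarded immune cells at the same depth, Nfkbia was found in 20.6% to 51.7% of cells by library and Tnfaip3 in 4.23% to 20.8%, in each of the 10 libraries above the Tnfaip3 share of its alveolar cells (0.958% to 4.33%).

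**Figure D3:**
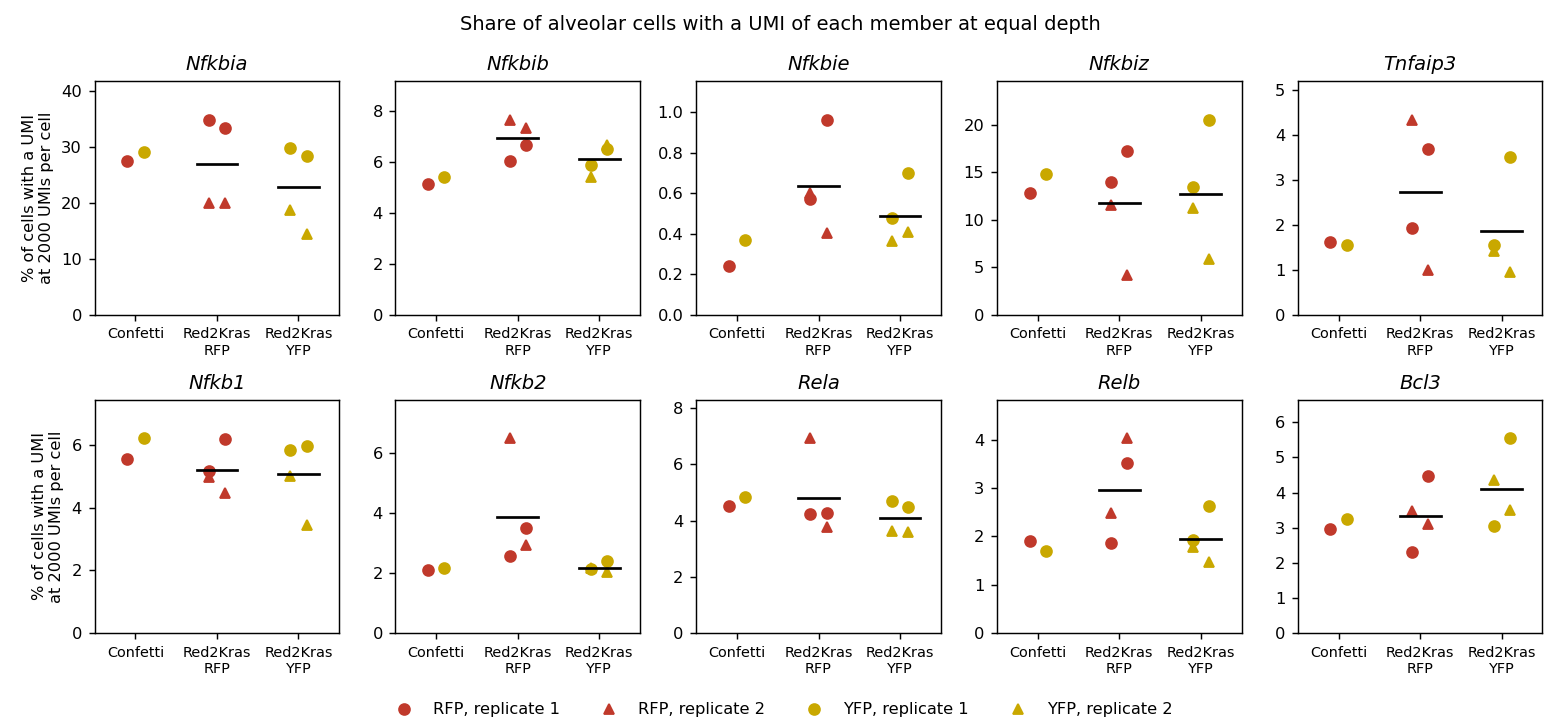
Percent of alveolar cells with a UMI of each member, expected at 2000 UMIs per cell (vertical axes, from 0), for the Confetti, Red2Kras RFP and Red2Kras YFP libraries; within a Red2Kras column 4 days is drawn left and 2 weeks right, and black lines are means of 4 libraries. Only for Nfkb2 do the RFP libraries (2.57% to 6.47%) all lie above the YFP libraries (2.04% to 2.39%).

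Alveolar cells were grouped into states without using the 10 members, named from marker genes as AT2-like, primed AT2-like, cycling-like and DATP-like (damage-associated transient progenitors, an intermediate of alveolar repair). A group led by Meg3 and Dlk1 stayed unnamed. Each value below is the CPM within a state in 1 library with at least 50 cells of it, unscaled, and is a description with no test. DATP-like cells were numerous enough in 3 libraries, all RFP. Relb stood there at 24.4 and 32.2 CPM in the 2 weeks libraries of replicates 1 and 2 and at 17.0 in the 4 days library of replicate 2. In primed AT2-like cells it stood at 16.6 and 20.5 CPM in 2 weeks RFP, 13.5 and 7.29 in 2 weeks YFP, 12.1 and 7.88 in 4 days RFP and 8.64 in the 4 days YFP library of replicate 2. In AT2-like cells the 2 weeks RFP library of replicate 1 held 19.3 CPM, against 13.4 and 12.6 in 2 weeks YFP and 9.28 and 8.81 in Confetti RFP and YFP. In both the AT2-like and the primed AT2-like state the 2 weeks RFP libraries thus held more Relb than any other library with at least 50 cells, though for AT2-like cells replicate 1 was the single 2 weeks RFP library of that size, and within 2 weeks RFP the DATP-like cells held the most. The primed AT2-like state compares different clusters, however. A Pglyrp1-led cluster held 1476 of 1952 such cells in 2 weeks RFP of replicate 1 and 85 of 101 in replicate 2. An Hspa1b-led cluster held 2738 of 3102 in 2 weeks YFP of replicate 1. Relb stood at 11.2 and 12.5 CPM in the 2 libraries with 50 Hspa1b-led cells, 2 weeks RFP and YFP of replicate 1. In the Pglyrp1-led cluster it ran from 14.6 to 19.7 over 3 libraries.

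Nfkb2 and Rela were high in DATP-like cells, chiefly those of 1 library, and Tnfaip3 varied between the DATP-like cells of different libraries. In the 4 days RFP library of replicate 2, DATP-like cells held 57.5 CPM of Nfkb2, 64.6 of Rela and 44.8 of Tnfaip3, against 15.8, 21.3 and 10.8 in its primed AT2-like cells. The cycling-like cells of that library held 39.6 CPM of Nfkb2, with Rela and Tnfaip3 both at 12.4. Most of its DATP-like cells belonged to a cluster led by Hmga2, Ndrg1 and Phgdh, which made up 30.6% of the alveolar cells of the 4 days RFP library of replicate 2 and 7.57% of the 2 weeks RFP library of replicate 1. In this cluster Nfkb2 stood at 60.4 and 37.0 CPM, Rela at 71.7 and 43.0, and Tnfaip3 at 47.2 and 40.5 in the 4 days and 2 weeks library. Nfkbia did not share this pattern: it stood at 101 and 160 CPM there, below its level in the Confetti libraries. In the other DATP-like cluster, led by Spp1 and Gzme, Nfkb2 stood at 46.4 CPM in the 4 days RFP library of replicate 2 and at 23.9 and 19.0 in the 2 weeks RFP libraries of replicates 1 and 2. Rela stood there at 37.4, 25.6 and 26.8 CPM and Relb at 16.4, 27.1 and 32.3 in the same order. In both libraries that held both clusters, Nfkb2 and Rela were thus higher in the Hmga2-led cluster. Nfkbia ran from 173 to 402 CPM in the Spp1-led cluster, with a median of 232 over 3 libraries. Over all DATP-like cells Nfkbia stood at 116 CPM in the 4 days RFP library of replicate 2. In the 2 weeks RFP libraries of replicates 1 and 2 it stood at 321 and 230 CPM. At 2 weeks the DATP-like cells of the RFP libraries of replicates 1 and 2 held 34.7 and 5.90 CPM of Tnfaip3, and the AT2-like cells of the replicate 1 library held 37.3.

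The inhibitors Nfkbia and Nfkbiz were highest in AT2-like cells of replicate 1 at 2 weeks, at 773 and 253 CPM in RFP and 600 and 285 CPM in YFP, against 227 and 76.9 in Confetti RFP and 235 and 91.7 in Confetti YFP. Among AT2-like cells 1 cluster had, beside Nfkbia and Nfkbiz themselves, Fam46a, Gem, Atf3 and Fosb as leading genes. It held 217 of the 282 AT2-like cells of the 2 weeks RFP library of replicate 1 and 670 of 787 in YFP, but 970 of 3667 in Confetti RFP and 1010 of 3814 in Confetti YFP, so the levels of the whole state compare different clusters. Within the cluster Nfkbia stood at 925 and 666 CPM in those 2 weeks RFP and YFP libraries and at 481 and 460 in Confetti RFP and YFP, a smaller contrast than over the state. Over 6 libraries the median of the cluster was 494 CPM for Nfkbia and 162 for Nfkbiz, against 98.6 and 45.4 over 5 libraries in the AT2-like cluster led by Pon1. A small primed AT2-like cluster led by AW112010, Iigp1 and Isg15, genes of the interferon response, reached 50 cells in 2 libraries, the 4 days YFP library of replicate 2 and the 2 weeks YFP library of replicate 1. There Nfkbie stood at 24.9 and 31.3 CPM, Nfkbia at 253 and 560, Nfkb2 at 32.0 and 34.7, and Relb at 14.2 and 39.2, from 12 to 500 UMIs each. Nfkbie was below 10 CPM in each library and cluster outside it that reached 50 cells.

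**Figure D4:**
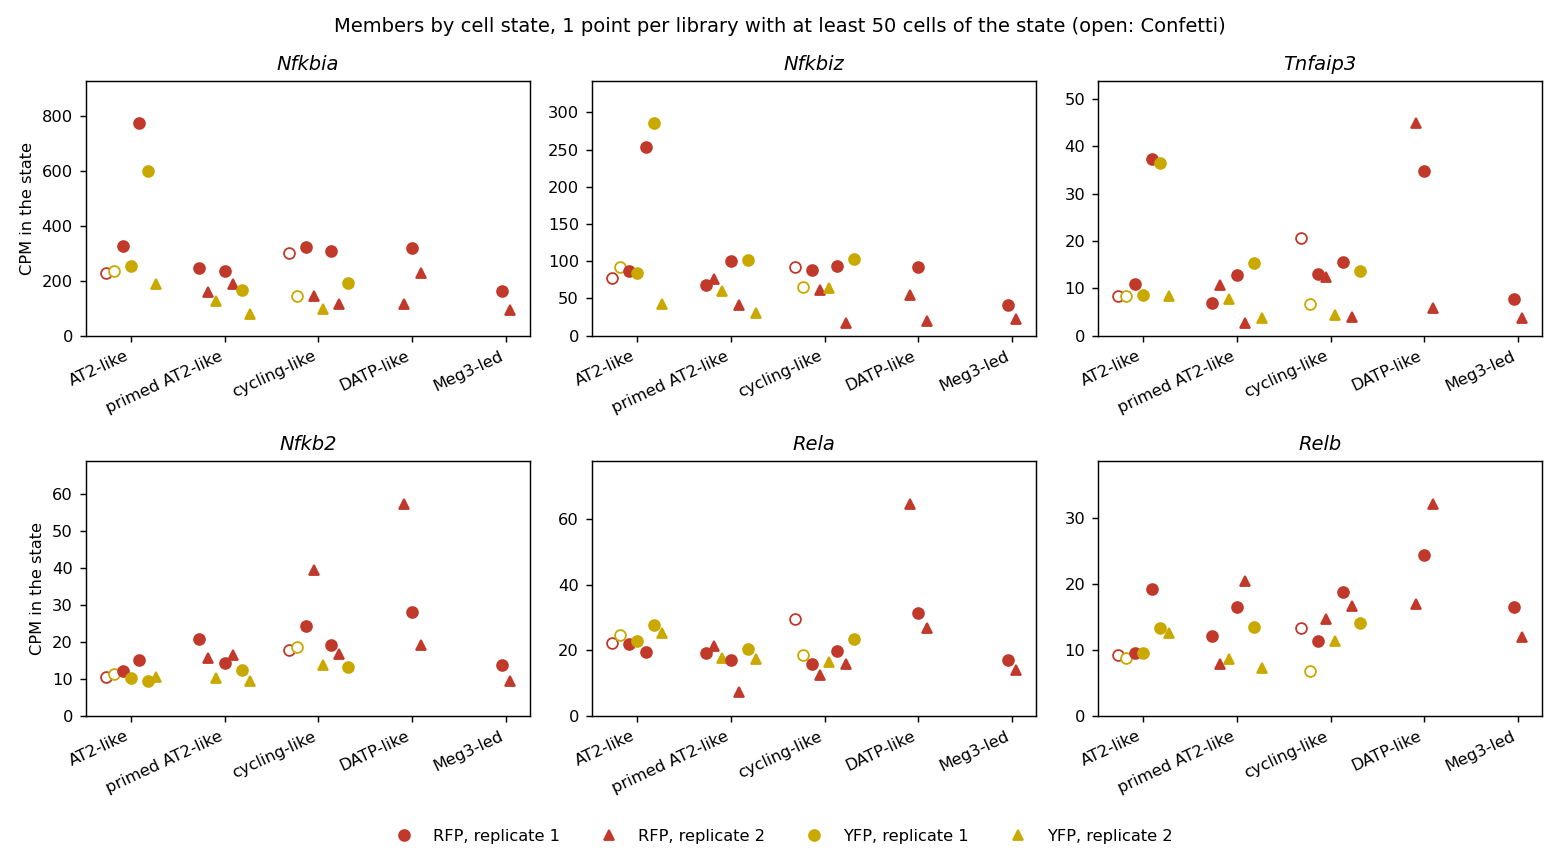
CPM of 6 members within each cell state (vertical axes, from 0; unscaled), 1 point per library with at least 50 cells of the state; red is RFP, yellow YFP, circles replicate 1, triangles replicate 2, and open circles Confetti. Nfkb2 (57.5 CPM) and Rela (64.6) peak in the DATP-like cells of the 4 days RFP library of replicate 2, and Nfkbia in AT2-like cells of the 2 weeks libraries of replicate 1 (773 and 600).

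The split of Nfkbia and Nfkbiz by replicate number was compared once its size had been seen. At equal depth Nfkbia was found, for replicates 1 and 2, in 34.8% and 19.9% of RFP cells and 29.7% and 18.7% of YFP cells at 4 days. At 2 weeks it was found in 33.3% and 19.9% of RFP cells and 28.3% and 14.5% of YFP cells. Replicate 1 was higher in 4 of 4 groups, and also in all 8 pairs of libraries that could be compared within a state. For Nfkbiz it was higher in 4 of 4 groups and in 7 of 8 pairs, and for Nfkb1 in 4 of 4 and in 8 of 8, at smaller differences (3.44% to 6.18% of cells over the 8 libraries). Replicate 1 was higher in 4 of 4 groups for 3 of 10 members and for 19% of 13762 genes. Rela was higher in replicate 1 in 3 of 4 groups and in 8 of 8 pairs within a state. The pairs within a state came from 4 days RFP, 2 weeks RFP and 2 weeks YFP, with none from 4 days YFP. Several share the same libraries and are not independent. No share over all genes was computed for them, so they do not set members apart. In edgeR with the 4 groups as terms, replicate 1 exceeded replicate 2 by a log2 fold change of 1.01 for Nfkbia (SE 0.15, unadjusted p = 0.000261, adjusted p = 0.0863) and 1.15 for Nfkbiz (SE 0.34, unadjusted p = 0.0109, adjusted p = 0.147). Neither passed, where 0.0606% of 13197 genes did and 19.7% had an unadjusted p under 0.05. With DESeq2 both passed (adjusted p = 4.05e-08 and 0.0156). Over all alternatives the adjusted p ran from 4.05e-08 to 0.338 for Nfkbia and from 0.0156 to 0.485 for Nfkbiz. By the same test Nfkb1 was at 0.30 (SE 0.15, adjusted p = 0.325). Relb (log2 fold change 0.0033, SE 0.20), Rela (-0.09, SE 0.18) and Nfkb2 (-0.33, SE 0.27) had adjusted p values of 0.995, 0.838 and 0.537.

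Other measures moved with the replicate number as well. A list of 12 immediate-early genes, which dissociation and stress induce within minutes, summed to 3590 and 2470 CPM in replicates 1 and 2 of 4 days RFP, 2875 and 2629 in 4 days YFP, 5528 and 3052 in 2 weeks RFP, and 6332 and 2437 in 2 weeks YFP. A list of 7 heat-shock genes summed to 2178 and 1497, 1635 and 918, 5572 and 2442, and 8052 and 2332 CPM in the same order. In Confetti RFP and YFP the immediate-early sum was 2068 and 2119 CPM and the heat-shock sum 1241 and 1138. Xist, the RNA of the inactive X chromosome, was at 99.2 to 591 CPM in the replicate 1 libraries, 0.241 to 0.478 in those of replicate 2, and 724 and 660 in Confetti RFP and YFP. A sum of 4 Y-linked genes was at 30.6 to 95.9 CPM in replicate 1, 74.4 to 100.2 in replicate 2, and 0 and 0.135 in Confetti. The replicate 1 libraries thus held cells of both sexes, replicate 2 male cells and Confetti female cells. Every comparison with Confetti took both replicates together and so set partly or wholly male libraries against female ones. Sex cannot be told apart from genotype in these comparisons. The cell states differed too, as given above. The part of each in the values of Nfkbia and Nfkbiz was not tested. A list of 9 immune genes summed to 72.3 to 102 CPM in alveolar cells of all libraries, with Ptprc at 0.0969 to 0.660 CPM and Marco at 0 in 8 libraries and at most 0.352 in the other two.

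**Figure D5:**
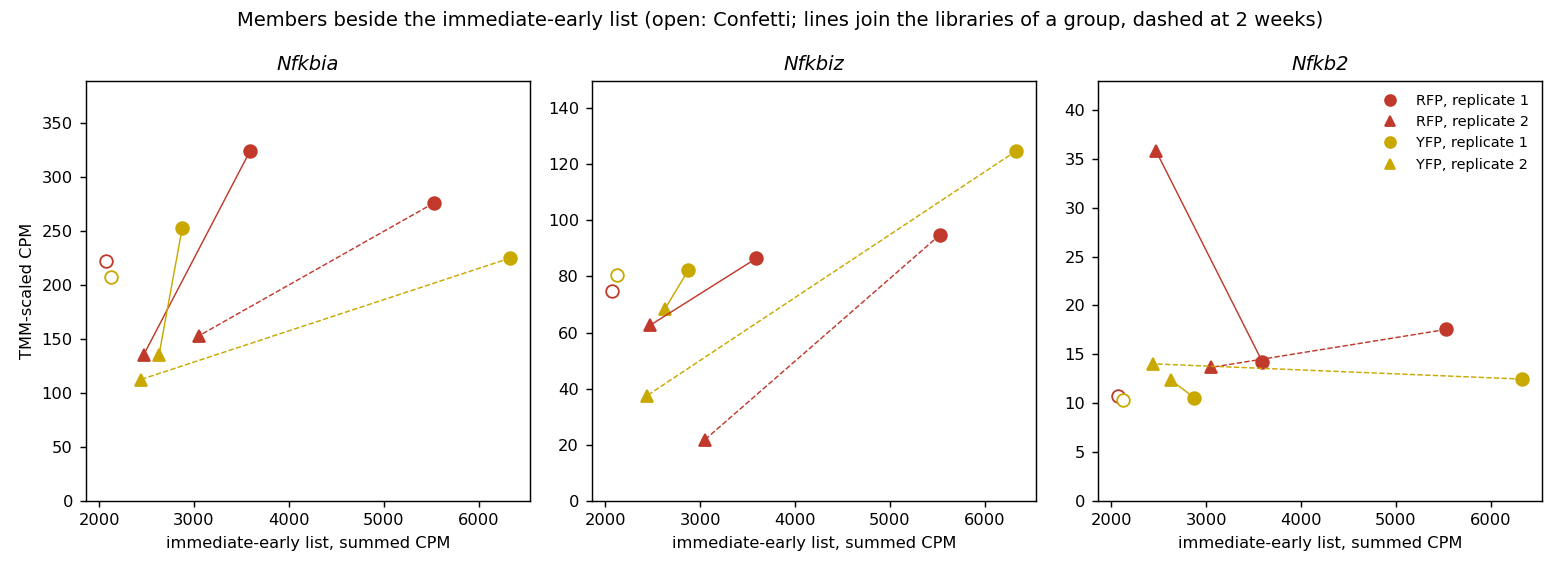
TMM-scaled CPM of Nfkbia, Nfkbiz and Nfkb2 (vertical axes, from 0) against the summed CPM of 12 immediate-early genes (horizontal axis), 1 point per library; lines join the libraries of a Red2Kras group, dashed at 2 weeks, and open points are Confetti. In all 4 groups replicate 1 (circles) lies right of and above replicate 2 for Nfkbia and Nfkbiz, while for Nfkb2 it lies above in 1 group, 2 weeks RFP.

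Within single cells of 1 library at equal depth, Nfkbia had the closest relation to the immediate-early sum, with Pearson r from 0.22 to 0.51 over the 10 libraries (median 0.43, 1009 to 4210 cells each). Nfkbiz followed at 0.15 to 0.36. The pair of Nfkbia and Nfkbiz had r from 0.07 to 0.36, and Nfkbia and Tnfaip3 from 0.10 to 0.32. All cells of a library share its preparation, and the points share their depth scaling. For every other pair of members the median r over the libraries was under 0.10, as was that of each other member with the immediate-early sum, which in sparse counts is no finding.

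Over the 10 libraries, the genes whose log2 CPM followed each member most closely were searched among those with a mean of at least 20 CPM. Nfkbia was followed by Rnf20 (r = 0.968), Rgcc (0.955) and D030056L22Rik (0.942). Nfkbiz was followed by Nr4a1 (0.975), Ptp4a1 (0.961) and Psme4 (0.958), and Nfkbie by Atf3 (0.855), Fosb (0.854) and Fos (0.849). Of these, Nr4a1, Atf3, Fosb and Fos belong to the immediate-early list. Nfkb2 was followed by Tmsb10 (0.963), Epha2 (0.962) and Arl8a (0.958), and Relb by Tmed5 (0.966), Carnmt1 (0.964) and Mapre1 (0.959). Rela was followed by Mast4 (0.984), Mfsd1 (0.957) and Gmfb (0.952). Tnfaip3 was followed by Tor1aip2 (0.974), Atf4 (0.925) and Eif4g2 (0.908), and Bcl3 by the chemokine Cxcl17 (0.969), Clip4 (0.939) and Hmox1 (0.932). Nfkbib was followed by Rpf1 (0.939), Ndfip1 (0.933) and Tmem60 (0.924), and Nfkb1 by Pik3c2a (0.944), Gnaq (0.944) and Ggt5 (0.942). These are the highest of 4829 or 4830 correlations per member over libraries that share groups and replicate numbers, and they carry no test.

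The rest of the pathway was read from 4 lists. Of the receptors, 8 of 10 were tested, and in 2 weeks RFP against Confetti 1 passed upward and none downward. It was Tnfrsf12a, the receptor of the TNF family ligand TWEAK, at 247 and 379 CPM in the 2 weeks RFP libraries of replicates 1 and 2 against 62.7 and 65.6 in Confetti (log2 fold change 2.29, SE 0.43, adjusted p = 0.0416). The median over the receptors was -0.03, beside 0.03 over all genes. None of the 19 kinases and adaptors passed. The nearest were the adaptor Traf6, at -1.04 (SE 0.33, adjusted p = 0.0833), and the kinase Ikbke, at 2.67 (SE 0.89, adjusted p = 0.0940) from 4 and 13 UMIs in Confetti, with a list median of -0.09. None of the 11 other subunits and regulators passed. The nearest were the deubiquitinase Otulin, at -0.68 (SE 0.25, adjusted p = 0.116), and the atypical inhibitor Nfkbid, at -0.93 (SE 0.58, adjusted p = 0.301), with a list median of -0.24.

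Among 26 known target genes, 3 passed upward and none downward in 2 weeks RFP against Confetti. The list median was 0.87 beside 0.03 over all genes, of which 3.4% passed upward, and 8 of the 26 had an unadjusted p under 0.05, where 31.1% of all genes did. In 2 weeks YFP against the same Confetti libraries the list median was 0.65, and in RFP against YFP at 2 weeks it was -0.11 (0.01 over all genes in both). Unadjusted p values under 0.05 were found for 5 of 26 targets in 2 weeks YFP against Confetti (5.62% of all genes), 1 of 26 in 4 days YFP against Confetti (1.84%), 6 of 26 in 4 days RFP against Confetti (8.82%), 8 of 26 in RFP against YFP at 4 days (5.68%), 7 of 26 at 2 weeks (16.4%) and 11 of 24 over both times (21.4%), with none passing after adjustment. The cytokine Tnf had 826 and 146 UMIs in the 2 weeks RFP libraries of replicates 1 and 2 (11.0 and 3.67 CPM) against 5 and 2 UMIs in Confetti RFP and YFP (0.311 and 0.135 CPM, adjusted p = 0.0332). The adhesion molecule Vcam1 had 2548 and 2002 UMIs (34.0 and 50.4 CPM) against 3 and 1 (0.186 and 0.0674 CPM, adjusted p = 0.0359). The chemokine Cxcl5 stood at 47.3 and 18.3 CPM against 2.73 and 4.04 (log2 fold change 3.30, SE 0.70, adjusted p = 0.0444). Both 2 weeks RFP libraries lay above both Confetti libraries for each of the 3. In the 2 weeks YFP libraries of replicates 1 and 2, Tnf had 35 and 13 UMIs, Vcam1 51 and 113, and Cxcl5 127 and 12. These calls stand on the comparison whose gene count fell to between 1 and 199 without single libraries, and they were not refitted without them. No gene of the 4 lists passed in RFP against YFP at either time, in 4 days RFP against Confetti, or in YFP cells of either time against Confetti. Whether the effect in RFP cells differs from that in their wildtype neighbours was tested for these genes only as RFP against YFP at 2 weeks, where Tnf, Vcam1, Cxcl5 and Tnfrsf12a had adjusted p values of 0.210, 0.301, 0.191 and 0.202.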

How the data were processed

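Gene expression was measured by droplet-based single-cell RNA sequencing in 10 libraries. Per the labels, the authors made the deposited UMI counts per gene and cell with Cell Ranger (3.1.0 in the submitters' processing notes, 5.0.1 in the matrix headers) on GRCm38, and gave the chemistry differently in labels and methods. No doublet removal is stated.

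Cells with under 1000 genes, over 50000 UMIs or over 15% mitochondrial UMIs were removed, as in the study's methods, and the counts were clustered without the members (scikit-learn 1.9.0, igraph 0.11.9). Clusters were named from marker lists. Genes found in at least 20% of cells of every cluster were left out of the check on leading genes, a threshold set after the clusters were seen, so names may differ from the study's. Clusters of immune, endothelial, mesenchymal and ciliated cells were discarded, and those kept are called alveolar. No doublets were removed in the main analysis. Scrublet (scanpy 1.11.5) marked 940 cells, 819 of them alveolar, and their removal was an alternative.

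Counts of alveolar cells were summed per library, without mitochondrial genes, and tested with edgeR 4.0.16 (quasi-likelihood, TMM, filterByExpr, Benjamini-Hochberg, threshold 0.05). RFP against YFP over both times and the replicate number were fitted over the 8 Red2Kras libraries, the other comparisons over all 10. SE is the log2 fold change over the root of the test's F. The edgeR procedure was also run on simulated counts with a single dispersion for all genes and no replicate effect. That simulation does not speak to its power or error in these libraries. Comparisons with the same Confetti libraries share their controls. Shares at 2000 UMIs used the exact permutation test, two-sided. Alternatives were DESeq2 1.42.0, RLE size factors, no count filter, other cells or depths, libraries left out and a replicate block. Where nothing shows separate animals behind the libraries of a group, p-values measure the spread between these pooled samples. The study's methods spread the library preparation over 2 days, and the sources used here do not say which library was made on which day, so no value within a day could be given.

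The members and all lists were chosen with earlier results of these data known. Named genes were the 10 members, for each pathway list those past the threshold in a comparison, at most 4, or otherwise the 2 with the smallest adjusted p in 2 weeks RFP against Confetti, and for each member the 3 genes most correlated with it. Coordinates come from the GRCm38 annotation and promoters from RefSeq.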

Additional observations from a re-analysis of the deposited data

How the results depend on the processing

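Leaving aside single libraries, 619 of the fold changes recomputed for members kept their direction and side of the threshold, and 8 passed where they had not. In 5 the sign turned with a value more than 1 SE from 0, and in 38 it turned between values within 1 SE of 0. In AT2-like and primed AT2-like cells only, RFP against YFP over both times became -0.25 for Rela, and at 2 weeks 0.017 for Bcl3. With the discarded cell types included, replicate 1 against 2 became -0.16 for Nfkbie, -0.070 for Tnfaip3 and -0.081 for Nfkb1. The cause was not tested. In 4 days RFP against Confetti, no filter on low counts brought Nfkb2 (adjusted p = 0.0127) and Tnfaip3 (0.0489) past the threshold.

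Members called rose from 0 to 1 in 2 weeks RFP against Confetti with DESeq2, with no filter and with each cell scaled to 2000 UMIs (Relb each time), to 2 in 4 days RFP against Confetti with no filter, and to 2 with DESeq2 and 1 with no filter for the replicate number. Counts over all genes moved more. For RFP against YFP over both times, at 4 days and at 2 weeks, DESeq2 called 1193, 106 and 467 genes and no filter 1933, 494 and 1381. Against Confetti they called 2219 and 3239 (2 weeks RFP), 261 and 816 (4 days RFP), 105 and 530 (2 weeks YFP) and 12 and 131 (4 days YFP). No filter called 49 for the interaction, and the replicate number gave 1057 with DESeq2 and 373 with no filter. AT2-like and primed AT2-like cells alone gave 17 for both times, 19 at 2 weeks, 293 for 2 weeks RFP, 14 for 4 days RFP and 8 for 4 days YFP against Confetti, and 724 for the replicate number. With the discarded types included, 2 weeks RFP, 2 weeks YFP and 4 days YFP against Confetti each gave 0, and the replicate number 4. Cells scaled to 2000 UMIs gave 9 for both times and 3 for 4 days RFP against Confetti, RLE factors 1 at 2 weeks, and removal of the highest Scrublet scores 3 for 2 weeks YFP against Confetti.

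Leaving out each library in turn, genes called ranged from 0 to 1442 for RFP against YFP over both times, 0 to 194 at 4 days, 1 to 199 for 2 weeks RFP, 0 to 327 for 4 days RFP, 0 to 1 for 2 weeks YFP and 0 to 3 for 4 days YFP against Confetti, and 1 to 48 for the replicate number. Members called ranged from 0 to 1 at 4 days and for 4 days RFP against Confetti (Nfkb2). Of 90 log2 fold changes of members, 39 took the other sign without at least 1 library, none of them past the threshold on either side. In 10 the value before or after the turn lay more than 1 SE from 0: for RFP against YFP Bcl3 at 4 days (-0.69 to 0.024), and at 2 weeks Nfkbie (-0.59 to 0.72) and Tnfaip3 (-1.43 to 1.05). Against Confetti they were Tnfaip3 in 2 weeks RFP (-0.82 to 1.17), Nfkbia (-0.66 to 0.59) and Rela (-0.025 to 0.71) in 4 days RFP, and Nfkbiz in 2 weeks YFP (-1.06 to 0.68). For the interaction it was Tnfaip3 (-2.46 to 0.013), and for the replicate number Nfkb2 (-0.58 to 0.0069) and Relb (-0.20 to 0.11). Among the rest, whose values with all libraries and after the turn both lay within 1 SE of 0, wide ranges over the libraries left out were those of Nfkbia at 4 days (-0.51 to 0.77) and Nfkbiz (-1.92 to 0.62) and Nfkb1 (-0.29 to 0.29) at 2 weeks in RFP against YFP, and of Nfkbia (-0.51 to 0.33) and Nfkbiz (-1.85 to 0.26) in 2 weeks RFP against Confetti. A library left alone in its group was assumed to vary like the other groups.

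Under a replicate block, 882 genes passed for RFP against YFP over both times and 0 at either time, with no member among them. Deviations from the group means correlated between groups at 0.016 to 0.55, over 0.1 in 4 of 6 pairs of groups (0.47 and 0.55 between colours of the same time), so the numbers did not meet the condition of over 0.1 in every pair and the fit without the block was kept. The pairs under 0.1, at 0.088 and 0.016, joined different time points, so they do not bear on pairing of the colours within a time. Depth limits Nfkbie most, with 14 to 393 UMIs per library.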
